A study of Mus musculus with 4 samples.

Results

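T cells of the mouse colon were picked out of a single-cell RNA sequencing data set by their CD3 transcripts. A barcode first had to reach 1000 gene UMIs (unique molecular identifiers, each a counted transcript) and 250 genes, with no more than 25% of its UMIs mitochondrial. It also had to hold 2 or more UMIs of Cd3d, Cd3e and Cd3g together, at most 1 of Epcam and Krt8, at most 1 of C1qa and Lyz2, and under 1% of its UMIs from S100a8 and S100a9. This left 200 T cells of 13158 cells that passed the quality limits, 61 of 6914 in batch 1 and 139 of 6244 in batch 2. The choice used measured transcripts, so the CD3 level and the absence of epithelial, macrophage and neutrophil transcripts are descriptions of the gate.

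The study profiled colon cells of adult C57/BL6J mice, wild type or JUP-KO (lacking junction plakoglobin, a protein of epithelial cell junctions), untreated or given dextran sulfate sodium (DSS, which injures the colon lining). The 4 conditions were marked with 1 hashtag antibody each, mixed, sorted for viability and loaded together, with 1 gene expression library and 1 hashtag library in each of 2 batches. The antibody features are named Ctrl_WT, Ctrl_DSS, TG_WT and TG_DSS. By these names Ctrl_DSS would be wild type with DSS and TG_WT untreated JUP-KO, and by the protocol's antibody order these would change places. Ctrl_WT is untreated wild type and TG_DSS is JUP-KO with DSS in both readings. Cells are therefore called by their tag name. How the knockout was made, which cells carry it, how many animals were pooled, and whether the batches are separate animals are not stated in the labels. P-values therefore measure the spread between the sums compared, shared largely over genes, which may be technical. They do not measure how a transcript was spread over the cells of a sum.

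T cells recognise antigen through a receptor of paired alpha and beta or gamma and delta chains, carried to the surface and coupled to signalling by CD3. In the gut many T cells sit within or just under the epithelium. These include cytotoxic cells with CD8 alpha homodimers or gamma delta receptors, interleukin-17 producing gamma delta and helper cells, and regulatory T cells.

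T cells were shallow beside the other cells. Their median depth was 3188 UMIs and 1364 genes in batch 1 and 3471 UMIs and 1412 genes in batch 2, against 13160 and 7684 UMIs in all other gated cells. Median mitochondrial shares were 2.32% and 1.04%. T cells over 10000 UMIs numbered 1 and 9, and in batch 2 these 9 held 21.7% of all T cell UMIs. All T cells of a batch together gave 208726 and 637052 UMIs. Levels below are given as CPM, the UMIs of a gene scaled to a common total of gene UMIs in the cells summed. They are not corrected for transcript length and are compared between groups of cells, not between genes. Between sums of cells, more cells with a transcript and more transcript per cell cannot be told apart unless the cells are counted. All intervals cover counting error only.

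The label was checked against transcripts that the gate had not used. A UMI of a receptor chain gene was present in 61 of 61 T cells in batch 1 and in 132 of 139 in batch 2. Trbc2, a constant region of the beta chain, reached 843 CPM in batch 1 (95% Poisson interval 723 to 977) and 729.9 in batch 2 (665 to 799), against 1.60 and 4.64 CPM in all other gated cells. Nkg7, a granule membrane protein of cytotoxic lymphocytes, stood at 709 and 689 CPM against 1.80 and 3.67. Just inside the limit, 2 cells in batch 1 and 12 in batch 2 held exactly 2 CD3 UMIs, and a receptor chain was seen in 2 and 9 of them. Just outside, 3 and 16 otherwise passing cells held exactly 1, with a receptor chain in 1 and 11.

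Epithelial, myeloid, plasma cell and stromal transcripts were lower in T cells than in the other cells but not absent. The 11 epithelial markers summed to 747 and 805 CPM in T cells and to 29000 and 32906 CPM in the other cells. The 9 neutrophil markers summed to 125 and 221 CPM, the 12 macrophage and monocyte markers to 129 and 169.5, the 9 plasma cell markers to 101 and 188, and the 8 stromal markers to 38.3 and 42.4. Cd79a, Pax5, C1qa, C1qc, Csf1r, Cxcr2, Ly6g, Mzb1 and Col1a1 had no UMI in any T cell. The 10 B cell markers summed to 95.8 and 94.2 CPM in T cells, against 49.9 and 204 in the other cells, and 5 of them were detected. The 10 dendritic cell markers summed to 105 CPM in batch 1 and 969 in batch 2, where 4 T cells held 10 or more Cd74 UMIs, each with a receptor chain. The 11 natural killer cell markers summed to 6525 and 4734 CPM, against 428 and 1176. Natural killer cells share granule genes with T cells. Of the genes that mark them, Ncr1 (1 and 16 UMIs) and Eomes (0 and 6 UMIs) were scarce, but others were not. With each cell cut to an equal number of UMIs, Fcer1g was seen in 49.2% of T cells in batch 1 and 33.8% in batch 2. Tyrobp was seen in 32.8% and 20.1%, and Klrd1 in 54.1% and 30.2%. Klrb1c was seen in 1.64% and 2.16%, and Klra4 and Klra8 in none. Markers of innate lymphoid cells of types 2 and 3 summed to 249.1 and 741 CPM and to 901 and 348 CPM, and the 8 mast cell markers, of which 2 were detected, to 230 and 135 CPM. The part of these cells in the results below was not tested. A further 35 and 67 cells with 2 or more CD3 UMIs failed the exclusions. Of these 37.1% and 47.8% carried more than 1 hashtag, against 14.8% and 5.04% of the T cells. No T cell barcode occurred in both batches. Jup itself had 0 and 2 UMIs in T cells, too few to check a label.

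Among genes at 50 CPM or more in T cells of both batches, the 25 with the largest ratio of T cell level to that of all other gated cells were nearly all genes of the receptor, of killer receptors or of effector molecules. In order they were Gm156, Trdc, Cd3g, Trgv2, Cd3e, Themis, Tcrg-C1, Actn2, Trac, Klra6, Cd3d, Trbc1, Tcrg-C2, Il17f, Cd8a, Il17a, Cd160, Klra7, Trdv4, Cd96, Tcrg-C4, Nkg7, Trbc2, Gzma and Trat1. The ratio ran from 539 for Gm156, listed in RefSeq as Klrh1, to 229 for Trat1, an adaptor of the receptor complex. The gate chose the cells, so these ratios are descriptions. Gm156 was concentrated in 16 of 61 and 19 of 139 T cells, at 393 and 141 CPM. It lies on chromosome 6 at 129766568 to 129784270 (mm10, GENCODE M21, minus strand).

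Of these 25 genes 15 had a promoter entry in the RefSeq table (GRCm38.p6). The motif TGTGGT, the core bound by RUNX factors, was searched on both strands (ACCACA on the other) in the 250 bases before the start. It was present for 8 of the 15 (53.3%), namely Actn2, Cd160, Cd96, Gzma, Il17a, Il17f, Nkg7 and Trat1, and for 14.2% of all 27025 promoters. The motif AGGTCA, a site for ROR nuclear receptors, was searched in the same way, with TGACCT as its other strand. It was present for 4 of the 15 (26.7%), namely Actn2, Il17a, Il17f and Trat1, and for 13.8% of all. The promoters of 5 genes are given 5′ to 3′ on the gene's strand, because they belong to the genes that chose the cells, to a killer effector, to a receptor adaptor and to interleukin-17A. Cd3g (chr9:44980432-44980681, minus strand) and Cd3d (chr9:44981536-44981785, plus strand) are transcribed away from each other from starts 1355 bases apart. Gzma is at chr13:113100982-113101231 (minus), Trat1 at chr16:48772063-48772312 (minus) and Il17a at chr1:20730655-20730904 (plus). Capitals mark the RUNX core and, in Il17a only, the ROR site, while the ROR site of Trat1 is left in lower case.
Cd3g: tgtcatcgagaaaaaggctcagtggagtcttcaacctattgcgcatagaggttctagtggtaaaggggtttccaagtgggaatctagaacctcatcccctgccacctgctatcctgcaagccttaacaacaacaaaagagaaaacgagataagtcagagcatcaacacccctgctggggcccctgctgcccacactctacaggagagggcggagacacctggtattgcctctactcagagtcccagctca
Cd3d: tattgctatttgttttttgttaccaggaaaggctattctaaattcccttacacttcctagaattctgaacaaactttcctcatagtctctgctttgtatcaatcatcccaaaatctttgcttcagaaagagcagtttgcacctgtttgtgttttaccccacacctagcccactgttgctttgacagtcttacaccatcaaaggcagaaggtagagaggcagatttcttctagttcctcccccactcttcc
Gzma: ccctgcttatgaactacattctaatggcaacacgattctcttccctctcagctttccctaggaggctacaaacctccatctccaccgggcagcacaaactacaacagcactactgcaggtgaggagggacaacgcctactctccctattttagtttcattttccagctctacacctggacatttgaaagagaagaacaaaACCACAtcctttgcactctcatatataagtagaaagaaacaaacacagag
Trat1: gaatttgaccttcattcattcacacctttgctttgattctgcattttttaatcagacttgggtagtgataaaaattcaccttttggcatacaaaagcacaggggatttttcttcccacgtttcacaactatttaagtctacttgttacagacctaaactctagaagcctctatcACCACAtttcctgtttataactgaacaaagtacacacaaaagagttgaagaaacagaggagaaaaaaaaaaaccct
Il17a: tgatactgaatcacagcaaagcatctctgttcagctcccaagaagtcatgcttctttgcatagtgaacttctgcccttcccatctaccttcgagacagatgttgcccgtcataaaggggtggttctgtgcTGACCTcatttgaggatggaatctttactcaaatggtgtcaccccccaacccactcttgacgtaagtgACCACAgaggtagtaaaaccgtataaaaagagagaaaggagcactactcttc
In Gzma the RUNX core began 50 bases before the start and in Trat1 76 bases before it. In Il17a the RUNX core began 52 bases and the ROR site 120 bases before the start. Neither CD3 promoter shown held the RUNX core. A match is a description of the letters, and no binding was measured.

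T cells were divided by the receptor and coreceptor transcripts that they held. Trdc encodes the constant region of the delta chain, Cd8a the alpha chain of CD8 and Cd4 the helper coreceptor. In batch 1, 19 of 61 T cells (31.1%, exact 95% binomial interval 19.9 to 44.3) held a Trdc UMI, 17 (27.9%, 17.1 to 40.8) a Cd8a UMI without Trdc, none a Cd4 UMI (up to 5.87% by the exact interval and 4.92% by a limit of 3 cells), and 25 (41.0%, 28.6 to 54.3) none of the 3. In batch 2 these were 54 of 139 (38.8%, 30.7 to 47.5), 22 (15.8%, 10.2 to 23.0), 9 (6.47%, 3.00 to 11.9) and 54 (38.8%, 30.7 to 47.5). The intervals of the batches overlapped for each class. Of the Trdc cells 7 and 14 also held a Cd8a UMI. A shallow cell can miss a transcript, which moves cells into the class with none and Trdc cells that hold Cd8a into the Cd8a class. Thinned to 1000 UMIs, 21.3% and 25.9% of T cells still held Trdc, and a Trdc UMI was found in 0.0394% and 0.0315% of epithelial cells.

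**Figure D1:**
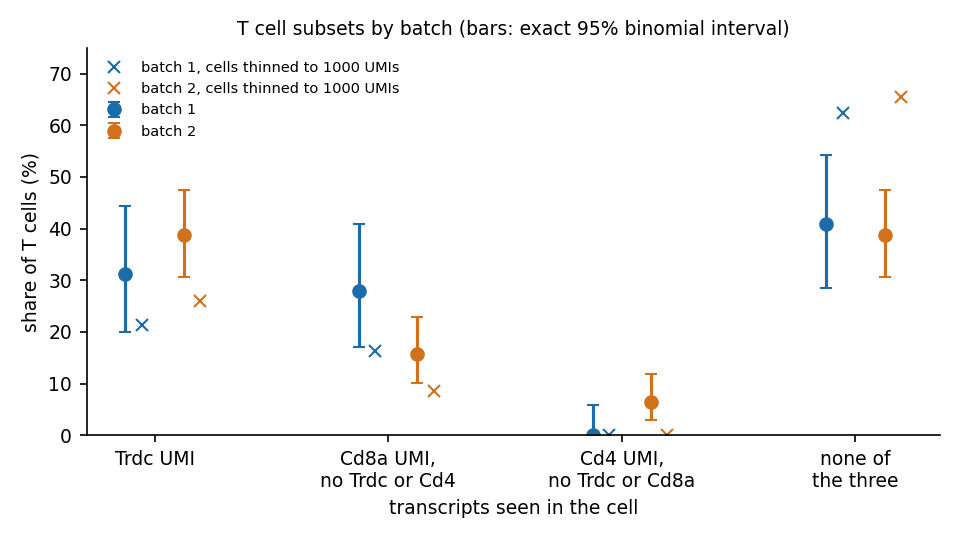
Share of T cells (%, y axis) by the transcripts seen in the cell (x axis), batch 1 in blue and batch 2 in orange. Circles with bars are shares with exact 95% binomial intervals, crosses the shares after each cell was thinned to 1000 UMIs. Cells with Trdc outnumbered cells with Cd4 in both batches, and thinning moved cells into the class with none of the 3 transcripts (62.3% and 65.5%).

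Alpha and delta chain transcripts did not divide the cells cleanly. Trac, the alpha constant region, lies on chromosome 14 at 54220521 to 54224206 and Trdc within the same locus at 54142851 to 54148868 (both plus strand, mm10). Only Trac was seen in 24 and 49 T cells, only Trdc in 10 and 37, both in 9 and 17, and neither in 18 and 36. Cd8a was seen in 24 and 36 T cells, whereas Cd8b1, the beta chain of the conventional CD8 heterodimer, was seen in 8 and 4, and 4 and 3 cells held both. Trgv2, a gamma chain variable segment, was found in 30 and 56 T cells, in the Cd8a class (491 and 314 CPM) as well as in the Trdc class (313 and 351 CPM). Neighbouring gamma chain genes are near-identical in part, and the labels do not state how reads shared by them were counted.

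Killer transcripts were abundant in both batches. Ccl5, a chemokine stored by cytotoxic cells, was seen in 44 of 61 and 71 of 139 T cells at 11412 and 4259 CPM, against 34.8 and 67.8 CPM in the other cells. Its level was 19444 and 5204 CPM in the Cd8a class, 10897 and 7166 in the Trdc class, 5761 and 2394 in the class with none, and 20.6 in the Cd4 class of batch 2. The Cd4 class thus stood below every other sum, with 1 library behind it and no test. It was a sum of 9 cells, and its deepest cell gave 46.1% of its UMIs. Dendritic cell markers summed to 5261 CPM in it. The part of such cells in its low Ccl5 level was not tested. After thinning, 68.9% and 41.0% of T cells held Ccl5, and 0.374% and 0.535% of epithelial cells and 0.286% and 1.72% of neutrophils did.

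Granzyme A was made by few cells at a high level. Gzma UMIs were found in 13 and 16 T cells, and the 3 richest cells gave 53.7% and 49.6% of them. The level was 7087 and 1873 CPM in the Cd8a class, 4528 and 6793 CPM in the Trdc class, and 0 and 283 CPM in the class with none. Which of the first 2 classes was higher differed between the batches. Gzmb, granzyme B, was seen in 17 and 49 T cells and in nearly every Gzma cell (13 of 13 and 14 of 16). Xcl1, a chemokine for cross-presenting dendritic cells, was seen in 37 and 57 T cells at 1758 and 2526 CPM, and in none of the 9 Cd4 cells. Perforin (Prf1) was sparse, in 3 and 11 cells.

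Markers of tissue-resident and natural intraepithelial lymphocytes were found across the Trdc and Cd8a classes. Itgae, the alpha E integrin that binds epithelial E-cadherin, was at 563 and 170 CPM in the Cd8a class, 253 and 246 CPM in the Trdc class, and 42.5 and 46.3 CPM in the class with none. Cd7 was at 2162 and 856 CPM in the Cd8a class and 694 and 345 CPM in the class with none. Ikzf2, a transcription factor of regulatory and unconventional T cells, was seen in 45 and 81 T cells, and Runx3, which directs the cytotoxic lineage, in 39 and 78. All 16 natural intraepithelial genes listed were detected in at least 1 batch. So were all 11 epithelial and all 18 interferon-stimulated genes listed, against 9 of 12 macrophage and monocyte genes. Detection alone therefore did not set this list apart. Ccr7, a homing receptor of naive and recirculating cells, had 2 and 12 UMIs.

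**Figure D2:**
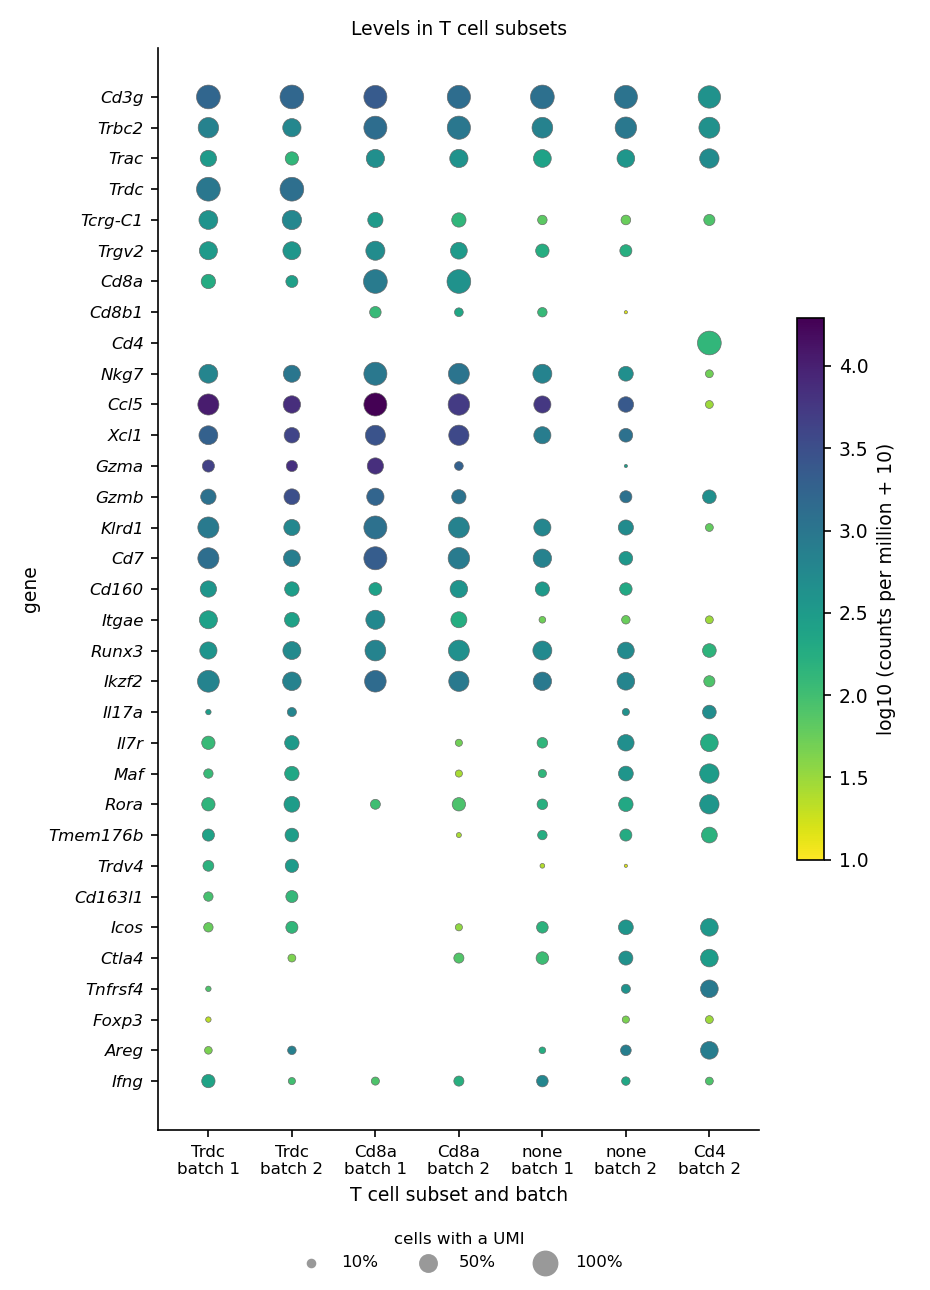
Levels of 33 genes (y axis) in each T cell class and batch (x axis). Dot area is the percentage of cells with at least 1 UMI, and colour is log10 of CPM plus 10. Ccl5, Nkg7, Xcl1 and Klrd1 fill the Trdc and Cd8a columns and fade in the Cd4 column, while in batch 2 Icos, Ctla4 and Tnfrsf4 are highest in the Cd4 class and the class with none. The Cd4 column is 9 cells, 1 of which gave 46.1% of its UMIs.

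The Trdc class was compared with the Cd8a class over 4 sums, 1 for each class and batch, with a batch term. The sums held 83048 and 227735 UMIs for Trdc and 55031 and 117978 for Cd8a. Trdc and Cd8a chose the classes and were not counted. The expression filter asked for a minimum level in as many sums as each class held. A gene low in both sums of a class was therefore tested only through the other class. By edgeR's quasi-likelihood test with Benjamini-Hochberg adjustment over 1699 genes, 25 genes (1.47%) differed, 17 (1%) higher in Trdc cells and 8 (0.471%) higher in Cd8a cells. The median log2 fold change of all genes tested was 0.02. The design left 1 residual degree of freedom, so the spread used for each gene was drawn largely from all genes tested together. DESeq2 called 0 genes on the same sums, with 16 at an unadjusted p under 0.05, and edgeR without the batch term called 5. At an unadjusted p under 0.05 edgeR gave 152 genes (8.95%).

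Interleukin-17A and a delta chain segment led the Trdc side. Il17a had 0 UMIs in both Cd8a sums and stood at 289 and 615 CPM in the Trdc sums of batches 1 and 2. Set against 3 counts over the Cd8a class it was at least 30.4-fold higher (edgeR adjusted p = 3.26e-16). In batch 1 all 24 Il17a UMIs of the Trdc class came from 1 cell, and in batch 2 its 140 UMIs came from 8. Trdv4, a delta chain variable segment, had 0 UMIs in both Cd8a sums and stood at 144 and 303 CPM in Trdc cells, at least 15.03-fold higher (edgeR adjusted p = 1.24e-08), from 4 and 17 cells. For both genes the Trdc sum lay above the Cd8a sum in each batch. Both passed the expression filter only through the Trdc sums. Trdv4 and Trdc are parts of 1 delta chain, and Trdc chose the classes. The direction for Trdv4 was therefore largely set by that choice and is a description.

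Tmem176b, a membrane channel of interleukin-17 producing cells, was at 0 and 16.95 CPM in Cd8a cells and 241 and 289.8 in Trdc cells (log2 fold change 4.48 ± 0.74 standard error, edgeR adjusted p = 3.86e-07). Its neighbour Tmem176a differed by 2.67 ± 0.60 on the log2 scale. Maf, a transcription factor of interleukin-17 producing gamma delta cells, went from 0 and 16.95 CPM in Cd8a cells to 108 and 202 CPM in Trdc cells (3.80 ± 0.78, edgeR adjusted p = 0.000234). Il7r, the receptor for the survival cytokine interleukin-7, was at 0 and 42.4 CPM in Cd8a cells and 108 and 321 CPM in Trdc cells (3.14 ± 0.66, edgeR adjusted p = 0.000319). Tmem176b, Maf and Il7r passed the expression filter only through the Trdc sums. Of 19 and 54 Trdc cells, Maf was seen in 3 and 20, Il7r in 6 and 20, and Tmem176b in 5 and 18. Of 25 and 54 cells with none of the 3 transcripts, these were 3 and 21, 5 and 26, and 4 and 14. These genes were thus not particular to the Trdc class.

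Cd44, an adhesion receptor of antigen-experienced cells, was at 36.3 and 33.9 CPM in Cd8a cells and 217 and 180.03 CPM in Trdc cells (log2 2.44 ± 0.59, edgeR adjusted p = 0.00494). Lgals1, encoding galectin-1, was at 18.2 and 203 CPM in Cd8a cells and 469.6 and 637 CPM in Trdc cells (2.17 ± 0.41, edgeR adjusted p = 3.21e-05). In batch 2, 1 Cd8a cell gave 87.5% of the Cd8a sum's Lgals1. Hspb1, a small heat shock protein, was higher by 3.43 ± 0.53, but 1 Trdc cell gave 76.0% of its UMIs in batch 2. S100a4 (2.31 ± 0.51), Bhlhe40 (2.56 ± 0.70), Nfkbia (1.67 ± 0.39), St3gal3 (3.13 ± 0.90) and the gamma constant region Tcrg-C1 (1.35 ± 0.39) were also higher in Trdc cells. Dgat1, Pde4b and S100a6 make up the 17. Cd44, Hspb1, S100a4, Bhlhe40, St3gal3, Dgat1 and Pde4b passed the expression filter only through the Trdc sums. S100a4 was seen in 5 of 19 and 19 of 54 Trdc cells. In the class with none of the 3 transcripts it was seen in 6 of 25 and 20 of 54 cells. Il17a and Tmem176b passed in 14 of 15 alternative settings and Trdv4 in 13 of 14, each failing with DESeq2.

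On the Cd8a side stood Cd8b1, at 109 and 212 CPM in Cd8a cells and 0 in both Trdc sums, at least 18.6-fold higher (edgeR adjusted p = 1.46e-07). It was seen in 4 and 3 Cd8a cells, and 1 cell gave 68.0% of the UMIs in batch 2. The class with none of the 3 transcripts held it in 4 of 25 and 1 of 54 cells. Cd8b1 encodes the partner chain of Cd8a, which chose the class, so its direction was partly set by that choice. Themis, which tunes receptor signalling during thymic selection, was at 182 and 373 CPM in Cd8a cells and 60.2 and 70.3 CPM in Trdc cells (log2 change fell by 2.14 ± 0.50 from Cd8a to Trdc, edgeR adjusted p = 0.0026). Trat1 was at 182 and 220.4 CPM in Cd8a cells and 96.3 and 39.5 CPM in Trdc cells. Med14, Maml2, Fhit, Neurl3 and Prkd3 complete the 8. Of these 8 all but Maml2 passed the expression filter only through the Cd8a sums. Med14 was seen in 4 and 8 Cd8a cells, and 1 cell gave 73.9% of its UMIs in batch 2. Without T cells over 10000 UMIs, Themis, Maml2 and Trat1 no longer passed (edgeR adjusted p = 0.457, 0.0568 and 0.111), nor did S100a6, Pde4b and Tcrg-C1. Cd8b1, Med14, Neurl3, Prkd3 and St3gal3 were too low to be tested there.

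**Figure D3:**
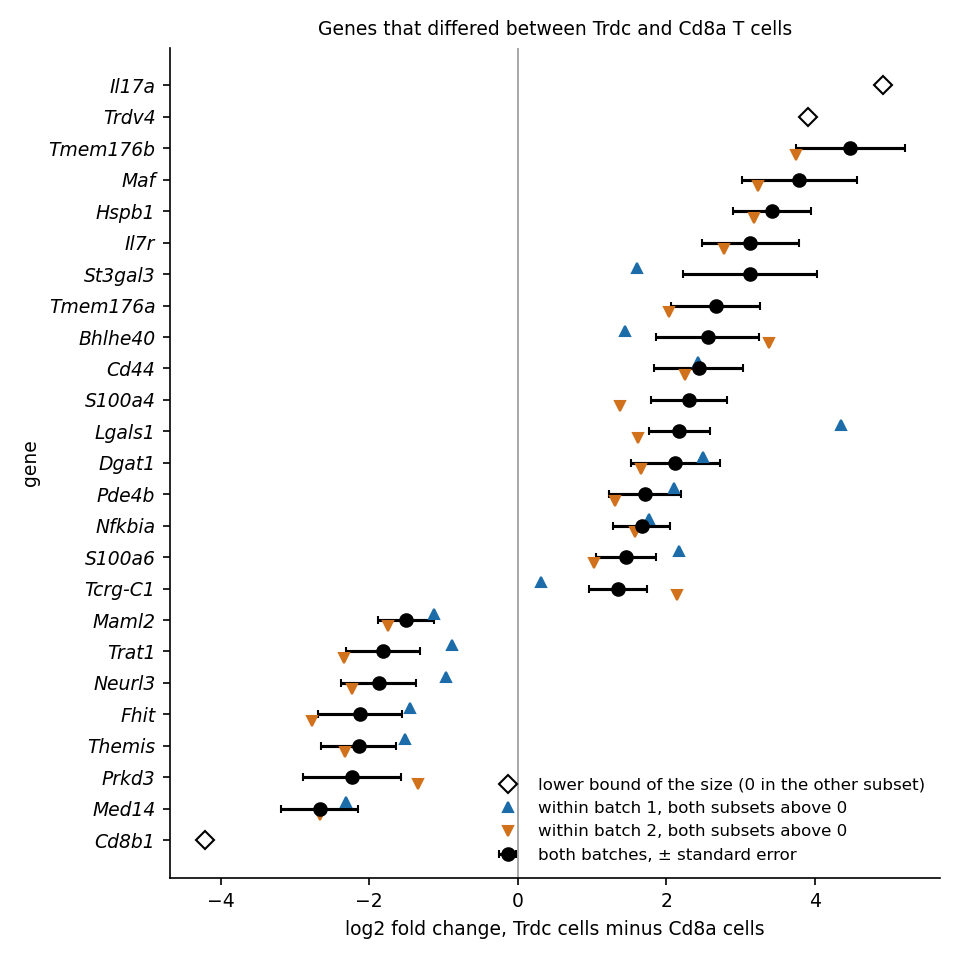
The 25 genes (y axis) that differed between Trdc and Cd8a T cells by edgeR, with the log2 fold change (x axis, Trdc minus Cd8a). Filled circles with bars are the fit ± its standard error, triangles the difference within a batch where both classes had UMIs, and open diamonds the lower bound for Il17a, Trdv4 and Cd8b1, which were at 0 in the other class. All within-batch triangles lie on the same side of 0 as the fit.

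Among lists of genes, that of interleukin-17 cells (Th17) had 4 of its 5 tested members higher in Trdc cells, against 17 of all 1699 genes (1%). The fifth, Rora, did not pass. Of 13 listed genes 8 were too low to be tested. Il17a, Maf and Tmem176b had at most 2 UMIs in either Cd8a sum. Tmem176a stood at 0 and 50.9 CPM there and Rora at 90.9 and 76.3 CPM. All 5 passed the expression filter only through their level in Trdc cells. Their direction was therefore partly set by the filter, and the 4 of 5 is a description. Of the 14 gamma delta genes other than Trdc 5 were tested and 2 were higher (Trdv4 and Tcrg-C1). Trdv4 belongs to the delta chain by which the Trdc class was chosen. None of the 10 cytotoxic genes tested passed (median log2 fold change -0.21), nor any of the 11 natural intraepithelial genes (-0.19) or the 11 residency genes (-0.06). All 10 heat shock and dissociation genes lay above 0 (median 0.25) without passing. The lists were drawn up with earlier results of these data known.

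T cells with an Il17a UMI lacked most killer transcripts in batch 2. Il17a UMIs were found in 16 of 139 T cells, 8 of the Trdc class, 5 with none of the 3 transcripts, 3 of the Cd4 class and none of the Cd8a class, and in 1 of 61 T cells in batch 1. None of the 16 cells held a UMI of Ccl5, Xcl1, Cd160, Klrd1, Gzma or Gm156. Among the other 123 T cells of batch 2 these were seen in 57.7%, 46.3%, 38.2%, 52.8%, 13.0% and 15.4%. Maf was seen in 13 of the 16 and in 29.3% of the others, Tmem176b in 12 and 20.3%, Icos, a costimulatory receptor, in 12 and 24.4%, Rora in 11 and 37.4%, and Il2ra in 9 and 22.0%. Trdv4 was seen in 8 of the 16 and in 8.13% of the others. Gzmb did not follow this division, with 5 of the 16 and 35.8% of the others. Median depth was 3184.5 UMIs in the 16 and 3542 in the others. The cells were chosen by a transcript, and no test was made.

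**Figure D4:**
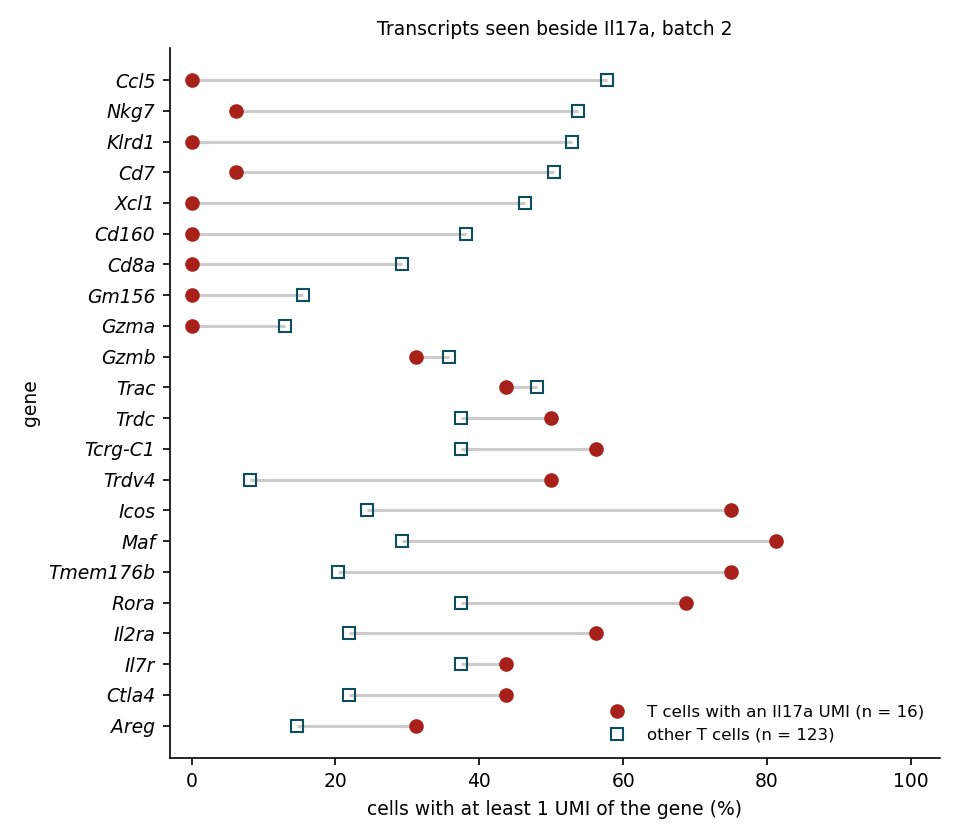
Percentage of T cells of batch 2 with at least 1 UMI of each gene (x axis), for the 16 cells with an Il17a UMI (filled circles) and the other 123 (open squares), with genes on the y axis. Ccl5, Xcl1, Cd160, Klrd1, Gzma and Gm156 sit at 0 in Il17a cells, while Trdv4, Icos, Maf, Tmem176b and Rora are found more often in them.

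Il22 and Il17f, cytokines that Il17a-producing cells can also make, were found in few cells. Il22 had 113 UMIs in 3 cells of batch 1, of which 98.2% came from 1 cell, and 0 in batch 2. Il17f had 32 UMIs in 2 cells and 37 in 5 cells. The type 2 cytokines Il5 and Il13 had no UMI in any T cell. Areg, a growth factor for epithelium that regulatory and type 2 cells can secrete, was found in 4 and 23 T cells at 71.9 and 618 CPM. Epithelial cells also express it, at 15.8% and 20.2% of thinned cells with a UMI, against 4.92% and 12.2% of thinned T cells. Neutrophils held it in 1.29% and 1.31%. In batch 2 the 3 richest T cells gave 66.5% of its 394 UMIs, and 9 of the 13 Tnfrsf4 cells held it against 11.1% of the others. The part of free epithelial RNA in the remaining cells was not tested. In the Cd8a class of both batches Areg had no UMI.

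In batch 2 helper and regulatory transcripts were highest in the Cd4 class and in the cells with none of the 3 transcripts, without a test. Ctla4, an inhibitory receptor, was at 299 CPM in the Cd4 class and 422 in the class with none, against 35.1 in Trdc and 67.8 in Cd8a cells. Tnfrsf4 (OX40) was at 896 and 417 CPM in the Cd4 class and the class with none and had no UMI in Trdc or Cd8a cells of batch 2. Icos stood at 329 and 366 CPM against 123 and 25.4. Foxp3, the factor that defines regulatory T cells, was seen in 1 and 6 T cells with 1 and 9 UMIs. The 13 Tnfrsf4 cells of batch 2 included 5 with Cd4, 4 with Foxp3 and 9 with Ctla4. In the 9 Cd4 cells, 8 held a receptor chain, 2 held 10 or more Cd74 UMIs, and the deepest cell, labelled TG_DSS with 44766 UMIs, gave 46.1% of the sum. Dendritic cell markers summed to 5261 CPM in that class and to 25.4 to 294 in the other classes of batch 2. Their part in these levels was not tested.

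Between the batches 65 of 3582 genes differed by 4-fold or more at 50 CPM or more, with Poisson intervals apart, 23 (0.642%) higher in batch 1 and 42 (1.17%) higher in batch 2. Each batch is 1 library and tags were spread unevenly over batches, so batch and tag cannot be told apart here. Higher in batch 2 were Cd74 (57.5 and 637 CPM), H2-Aa (0 and 162 CPM, at least 11.2-fold) and H2-Eb1 of antigen presentation, Tnfrsf4 (28.7 and 264 CPM), Ctla4 (33.5 and 199 CPM), Areg, the chemokine Cxcl10 (28.7 and 210 CPM), the interferon-induced GTPase Igtp, and Ifitm1. Ctla4 was seen in 7 of 61 and 34 of 139 T cells, and Igtp in 1 and 31. Goblet cell mucin Muc2 was also among them (28.7 and 132 CPM). Higher in batch 1 were Il22, Klrb1 (81.4 and 9.42 CPM), Nr3c2, the mineralocorticoid receptor (125 and 18.8 CPM), Ncald, Appl2 and the epithelial antimicrobial Reg3b (105 and 23.5 CPM). For Il22, 1 cell gave 98.2% of the UMIs. Without T cells over 10000 UMIs, 18 of the 23 and 27 of the 42 still met the rule. Those lost included Pclaf, Tyms, Gzmc and Klrb1.

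The order of the tags by T cell share differed between the 2 batches. In batch 1 T cells made up 12 of 152 cells labelled Ctrl_WT (7.89%, exact 95% interval 4.15 to 13.4), 30 of 398 labelled Ctrl_DSS (7.54%, 5.14 to 10.6), 1 of 451 labelled TG_WT (0.222%, 0.00561 to 1.23) and 9 of 1625 labelled TG_DSS (0.554%, 0.254 to 1.05). In batch 2 they made up 1 of 85 (1.18%, 0.0298 to 6.38), 4 of 441 (0.907%, 0.248 to 2.31), 49 of 1180 (4.15%, 3.09 to 5.45) and 78 of 1410 (5.53%, 4.40 to 6.86). Cells with both Ctrl tags were thus above those with both TG tags in batch 1, with intervals apart, and in batch 2 the TG tags had the higher values, apart from Ctrl_DSS but overlapping Ctrl_WT. With only cells of at most 1 Epcam and Krt8 UMI in the denominator the shares were 21.4%, 41.7%, 0.820% and 1.00% in batch 1. In batch 2 they were 3.57%, 5.41%, 5.95% and 7.82%, and there all 4 intervals overlapped. Each tag had 1 value per batch, and no test was made.

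**Figure D5:**
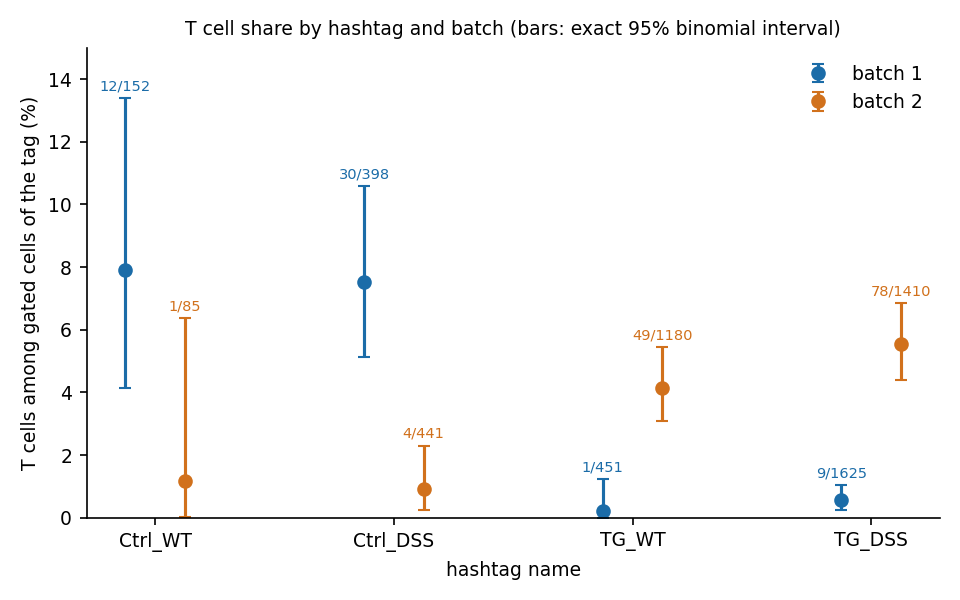
T cells as a percentage of the gated cells of each hashtag (y axis), by hashtag name (x axis), batch 1 in blue and batch 2 in orange. Bars are exact 95% binomial intervals and the fractions give T cells over gated cells. The Ctrl tags are high in batch 1 (7.89% and 7.54%) and the TG tags in batch 2 (4.15% and 5.53%).

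No T cell lacked a tag, although 3831 and 2364 gated cells were over no tag threshold. Another call, which asked the highest tag to be at least 3 times the next, gave the same tag to all 47 and 120 T cells that both calls placed. Both calls use the same counts, so this agreement is partly built in. In batch 1 it placed 15 T cells in Ctrl_WT, 33 in Ctrl_DSS, 1 in TG_WT and 4 in TG_DSS. In batch 2 these were 1, 4, 53 and 66. No pair of tags had 10 T cells each in both batches, and no single pair was tested over both. With the limit at 5 cells there was still none.

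Tags with 10 or more T cells formed 1 pair in each batch, Ctrl_DSS and Ctrl_WT in batch 1 and TG_DSS and TG_WT in batch 2. The 4 sums, of 111620 and 30374 UMIs and of 350801 and 218152 UMIs, were fitted together with a batch term, a test chosen after seeing the data. By the tag names it compares DSS with no treatment, and by the antibody order JUP-KO with wild type. EdgeR with Benjamini-Hochberg adjustment called 3 of 2775 genes (0.108%), and 102 (3.68%) had an unadjusted p under 0.05, with 1 residual degree of freedom. Gm156 was higher in cells of the tags named _DSS, at 546.5 against 0 CPM in batch 1 and 214 against 18.3 CPM in batch 2 (edgeR adjusted p = 0.0167). It passed the expression filter only through the sums of tags named _DSS, so its direction was partly set by the filter. Cst3, a protease inhibitor rich in dendritic cells, was lower, at 125 against 296 CPM and 134 against 1082 CPM (fell by 2.53 ± 0.42 on the log2 scale, edgeR adjusted p = 0.0167). Cd74, the class II invariant chain, was lower at 26.9 against 32.9 CPM and 102.6 against 839 CPM (fell by 2.84 ± 0.47, edgeR adjusted p = 0.0167), nearly all of it in batch 2. DESeq2 called 0 genes (15 at an unadjusted p under 0.05), and edgeR called 0 with upper-quartile scaling, without the batch term and without T cells over 10000 UMIs. The classes were not evenly spread over the tags: the Cd8a class made up 10 of 30 Ctrl_DSS and 2 of 12 Ctrl_WT cells, and 18 of 78 TG_DSS and 4 of 49 TG_WT cells. Gm156 cells held a Cd8a UMI in 12 of 16 and 13 of 19 cases. The part of the class mix in these differences was not tested.

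Within batch 2, T cells labelled TG_DSS (78 cells) and TG_WT (49 cells) could be set side by side, without replicates and therefore without a test. Of 3497 genes 44 (1.26%) were higher in TG_DSS and 30 (0.858%) higher in TG_WT by the rule of 4-fold and separate intervals. The first group held cell cycle genes. Stmn1, a microtubule regulator of dividing cells, was at 197 CPM in 10 of 78 cells against 13.8 CPM in 3 of 49. Top2a, Mki67, Rrm2, Pclaf, Dnmt1, Mcm3 and Lig1 were also in it, but of these 8 only Stmn1 still met the rule without T cells over 10000 UMIs. Stmn1 then stood at 80.9 CPM in 5 TG_DSS cells against 15.6 CPM in 3 TG_WT cells. The deepest T cell gave 12.8% of the TG_DSS sum. In all, 13 of the 44 still met it. Among the 13 were Gm156 (214 against 18.3 CPM, 16 and 2 cells), the inhibitory receptor Lag3 (59.9 against 9.17 CPM, 14 and 2 cells) and Il12rb2, a subunit of the interleukin-12 receptor (123 against 27.5 CPM, 22 and 5 cells).

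Among the 30 genes higher in TG_WT cells were antigen presentation and myeloid genes, named after their values were seen: Cd74 (839 against 102.6 CPM, 17 and 10 cells), H2-Aa, Cst3, Ifitm1 to Ifitm3 and Il1b (101 against 5.70 CPM). The dendritic cell markers summed to 1288 CPM in TG_WT and 182 in TG_DSS cells, and the macrophage markers to 234 and 128. Their part in these differences was not tested. Also higher in TG_WT cells were Trdv4 (243 against 48.5 CPM, 10 of 49 and 8 of 78 cells) and Tcrg-V6, the gamma chain segment (59.6 against 8.55 CPM, 5 and 2 cells). So were granzyme Gzmc (596 against 48.5 CPM, 5 and 4 cells) and Hspb1 (678 against 105 CPM, 6 cells each). Without T cells over 10000 UMIs Gzmc stood at 171 CPM in 4 TG_WT cells against 19.3 CPM in 3 TG_DSS cells. In batch 2, 1 Trdc cell gave 76.0% of the 150 Hspb1 UMIs of its class. Of the 30 genes 23 still met the rule without T cells over 10000 UMIs. Il17a was at 454 CPM in TG_WT and 450.4 CPM in TG_DSS cells, from 6 and 9 cells.

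Within batch 1, Ctrl_DSS (30 T cells) and Ctrl_WT (12 T cells) differed by the same rule at 10 of 4183 genes (0.239%) higher in Ctrl_DSS and 22 (0.526%) higher in Ctrl_WT. Gm156 was at 546 CPM in 11 of the 30 Ctrl_DSS cells and at 0 in the 12 Ctrl_WT cells, at least 5.53-fold higher. Smg6, a nonsense-mediated decay nuclease, was at 367 CPM in 19 cells against 32.9 CPM in 1 cell, and Maml2, a Notch coactivator, at 394 CPM in 16 cells against 65.8 CPM in 2. The chemokine Ccl4 was at 2008 CPM in Ctrl_WT (4 of 12 cells) and 26.9 CPM in Ctrl_DSS (3 of 30 cells), and Gzmb at 1185 CPM (4 cells) and 251 CPM (4 cells). The Ctrl_WT sum held 30374 UMIs, so genes at few counts there were not resolved. Without the 1 T cell over 10000 UMIs, 7 of the 10 and 11 of the 22 still met the rule.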

How the data were processed

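Colon cells of 2 batches were analysed from the raw UMI counts that the authors deposited, as a 10x matrix of 32285 genes and 4 antibody features. Per the submitters' processing notes, the tools were Cell Ranger 7.0.0 with build mm10. The labels name no annotation. Coordinates come from GENCODE M21, which holds 99.6% of the identifiers. Libraries held 133919905 and 95408149 gene UMIs. Members and gene lists were chosen with earlier results of these data known.

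For each hashtag, a mixture of 2 Gaussians fitted to its log10 counts within a batch set the threshold (scikit-learn 1.9.0). Cells over 2 or more thresholds stayed in the T cell totals and out of tag groups. No doublet caller was run; the exclusions on Epcam, Krt8, C1qa, Lyz2, S100a8 and S100a9 took its place. UMIs were summed per class and batch (at least 10 cells) and tested with edgeR 4.0.16 (TMM, filterByExpr, batch term, adjusted p under 0.05), tested on simulated data. Classes of a batch share a library, which is why batch was a term. DESeq2 1.42.0, other scaling, no filter and other gates were alternatives. Genes named from the test were the 12 largest changes each way that kept direction within both batches at 50 CPM or more, plus list members; Dgat1, Pde4b and S100a6 fell outside this. Across T cells they were the 25 largest ratios at 50 CPM or more in both batches, and between batches or tags genes chosen after their values were seen from those differing 4-fold with separate 95% Poisson intervals. Folds against 0 use 3 counts over the group. Where cells were thinned, each was cut to 1000 UMIs.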

Additional observations from a re-analysis of the deposited data

Results flagged for a closer look

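The T cell share of cells labelled TG_WT minus that of cells labelled Ctrl_WT was -7.67 percentage points in batch 1 and 2.98 in batch 2. For TG_DSS minus Ctrl_DSS it was -6.98 in batch 1 and 4.62 in batch 2. The 2 batches moved in opposite directions, which is what drew attention to them, and the difference between the batches was not tested because each tag has 1 value per batch. In contrast, Ctrl_DSS minus Ctrl_WT was -0.36 and -0.27, and TG_DSS minus TG_WT was 0.33 and 1.38.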

How the results depend on the processing

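The count of 25 genes between Trdc and Cd8a T cells fell to 0 with DESeq2, to 5 with no replicate block (no batch term), to 14 when 2 UMIs put a cell in a class, to 16 without T cells over 10000 UMIs, and to 6 with the cells of none of the 3 transcripts as further sums. Upper-quartile scaling gave 25, no filter 26, at least 3 CD3 UMIs 26, at most 10% mitochondrial UMIs 23, no cells with several tags 27, and no cells with 10 or more Cd74 UMIs 24. Leaving out each sum in turn, with those further sums for a residual degree of freedom, gave 15 to 39. The lowest was without the Trdc sum of batch 2 and the highest without the Cd8a sum of batch 1. None of the 25 changed sign in the settings in which it was tested (11 of 15 for Cd8b1). The cause of each change was not tested. Alternatives with further sums or without deep or Cd74 cells, and all fits of tags, were chosen after seeing the data.

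The Cd8a share fell to 16.4% in batch 1 and 8.63% in batch 2 after thinning, and to 8.63% in batch 2 with 2 UMIs. The Trdc share of batch 2 was 25.9% after thinning and 29.5% with 2 UMIs, the Cd4 share 0% and 1.44%, and the share with none 65.5% and 60.4% (62.3% in batch 1 after thinning). These settings remove transcripts by construction. With the highest-tag rule T cells made up 17.9% and 18.0% of cells labelled Ctrl_WT and Ctrl_DSS in batch 1, where that rule placed 84 and 183 cells, 15 and 33 of them T cells. Without T cells over 10000 UMIs 27 of 42 genes higher in batch 2, 13 of 44 higher in TG_DSS and 11 of 22 higher in Ctrl_WT still met the rule. The 3 genes between tags named _DSS and _WT became 0 with DESeq2, upper-quartile scaling, no replicate block and without T cells over 10000 UMIs, and 17 with no filter. Leaving out 1 of those 4 sums leaves no residual degree of freedom and was not run. Comparisons with Cd4 cells, and of single tag pairs over both batches, were not run, as too few cells remained. Depth limits genes under a few UMIs per sum.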
